A study of Mus musculus with 2 samples.

Results

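The genes described here are the integrin chains and the proteins that couple them to actin at focal adhesions, read in the mitral valve of wild-type mice and of mice carrying 1 copy of the Fbn1 C1039G allele. The members were taken by gene symbol from a list of 35: 18 integrin chains found on valve, vascular and other tissue cells, 5 integrin chains typical of leukocytes (Itgal, Itgam, Itgax, Itgb2 and Itgb7), and 12 focal adhesion proteins. Every one of them was found among the 33640 gene symbols of the expression table, and all 35 had a mean of at least 1 TPM (an estimate of transcript abundance that corrects for transcript length and for the total of the library). The wild-type group and the Fbn1C1039G/+ group were each a single RNA library from mitral valves of 8 hearts, with both sexes pooled, at an age of 5 months. Fbn1 encodes fibrillin-1 of extracellular microfibrils, and the missense allele is that of a mouse model of Marfan syndrome. No strain background is given, and neither group received a treatment that the labels name. Neither genotype has a replicate, so no value has an error, no test was run, and each difference below is one between these 2 libraries. TPM values given in pairs name the wild-type library first and the mutant library second.

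Integrins are receptors made of an alpha and a beta chain that span the cell membrane. Outside the cell the pair binds matrix proteins or surface proteins of other cells, and the alpha chain largely sets which. Inside the cell, talins and kindlins bind the beta tail and switch the receptor on, while vinculin, zyxin, paxillin, alpha-actinins and the complex of integrin-linked kinase and parvin join it to actin filaments. Interstitial cells of heart valves use these contacts to hold and sense the collagen and microfibril scaffold. Fibrillin-1 itself carries an RGD sequence read by integrins such as alpha-v beta-3 and alpha-5 beta-1.

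Most members differed little between the pools. A difference is log2(TPM + 1) of the mutant library less that of the wild-type library, a scale that understates differences of low genes. The members ran from −0.40 (Itga8) to 1.05 (Itgax), with a median of 0.25, against 0.14 over all 17004 genes with a mean of at least 1 TPM. Itgax alone was at least 2-fold higher, which 4.81% of all genes were, and no member was at least 2-fold lower, which 1.72% of all genes were. More TPM in the mutant pool was seen for 26 of the 35 members and for 64.9% of all genes. The median of 0.14 places the middle gene above 0. Over all genes it varied with abundance, at 0.25 for a mean of 1 to 5 TPM and −0.03 at 200 TPM and over. After centring on the median of abundant genes, 25 members lay above 0 against 53.5% of all genes. After quantile normalization these numbers were 23 members against 48.4%, and with abundant and predicted genes left out of the total they were 26 against 58.9%. Itgb4, Itgb6 and Ptk2 are the 3 members whose sign depended on the scaling.

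Each member was also placed beside all genes of its abundance band (mean TPM of 1 to 5, 5 to 20, 20 to 50, 50 to 200, or 200 and over). None of the 35 lay outside the central 95% of its band, where 5.02% of all genes lay. Itgam came nearest, at 0.89 with the upper limit of its band at 0.91. Above the upper quartile of their bands lay 13 members and below the lower quartile 7, each place holding 25.0% of all genes. These positions describe the 2 libraries and are not a test of the genotype.

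**Figure D1:**
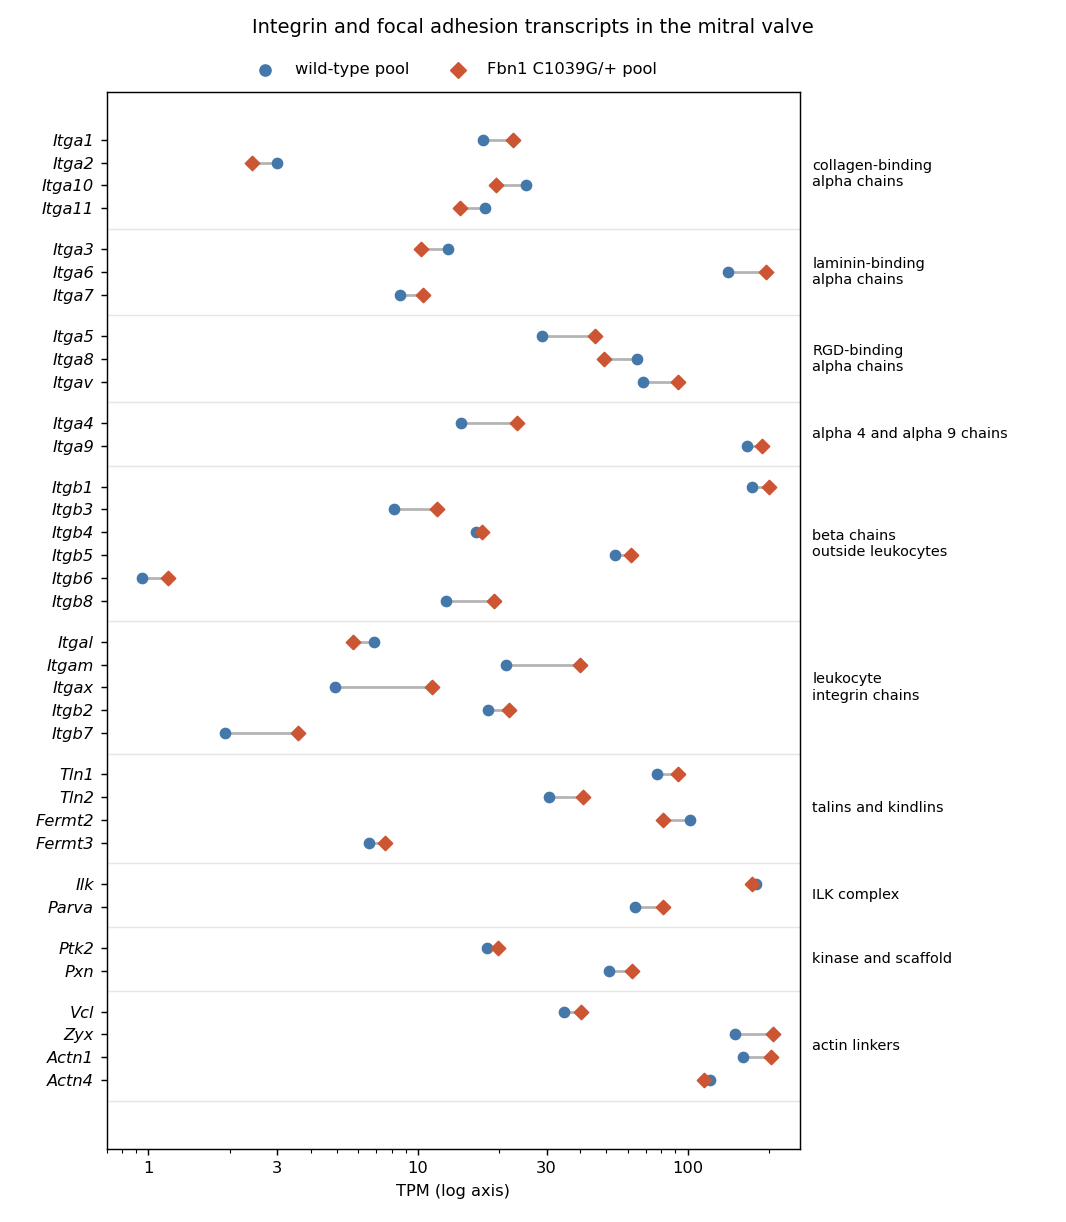
TPM of all 35 members on a log axis, with circles for wild type and diamonds for Fbn1 C1039G/+, 1 library each, ordered by role. The widest gaps belong to Itgax (4.92 and 11.2 TPM), Itgam (21.2 and 40.1 TPM) and Itgb7 (1.92 and 3.60 TPM), and the symbols of Itgb4, Ilk and Actn4 nearly touch.

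**Figure D2:**
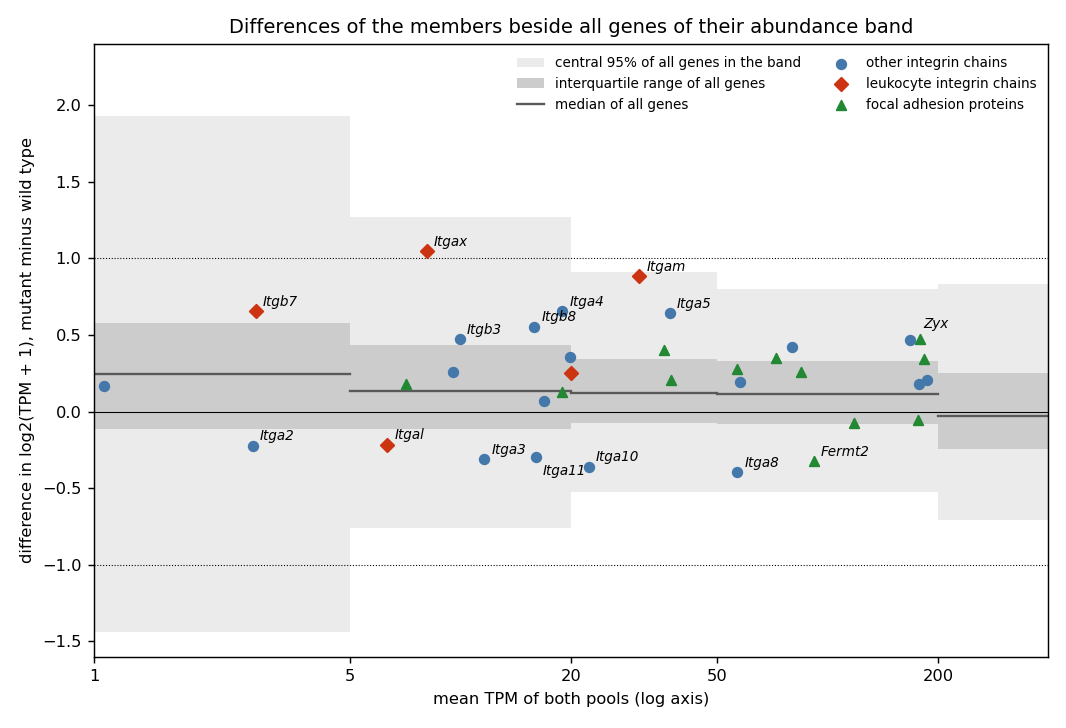
Difference in log2(TPM + 1) of each member (mutant less wild type) against its mean TPM on a log axis, over the central 95% (light grey), the interquartile range (dark grey) and the median (line) of all genes in 5 abundance bands. All members lie inside the light area, and Itgax is the 1 symbol above the dotted line at 1.

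The leukocyte integrins held the largest differences of the family. Their median was 0.66, beside 0.14 over all genes. Under each of the scalings 4 of 5 chains lay above 0, where 48.4% to 64.9% of all genes did, depending on the scaling. These chains bind endothelial adhesion molecules and opsonized particles, and Itgb2 is the common partner of Itgal, Itgam and Itgax. The promoters of the 3 chains with the largest differences are printed because these genes were higher together. Each runs from 250 bases before to 50 bases after the gene's start and comes from RefSeq on GRCm38.p6, the assembly also called mm10. Capitals mark the letters GAGGAA on either strand, the core of sites bound by PU.1, a transcription factor of myeloid cells. The positions are chr7:128062390-128062689 on the plus strand for Itgam, chr7:128129300-128129599 on the plus strand for Itgax and chr15:102231886-102232185 on the minus strand for Itgb7.
Itgam: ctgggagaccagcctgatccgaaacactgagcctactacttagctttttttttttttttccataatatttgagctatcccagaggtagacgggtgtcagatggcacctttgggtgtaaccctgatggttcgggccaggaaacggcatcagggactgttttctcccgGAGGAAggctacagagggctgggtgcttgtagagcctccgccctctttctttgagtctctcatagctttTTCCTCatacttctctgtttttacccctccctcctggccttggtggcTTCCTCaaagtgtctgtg
Itgax: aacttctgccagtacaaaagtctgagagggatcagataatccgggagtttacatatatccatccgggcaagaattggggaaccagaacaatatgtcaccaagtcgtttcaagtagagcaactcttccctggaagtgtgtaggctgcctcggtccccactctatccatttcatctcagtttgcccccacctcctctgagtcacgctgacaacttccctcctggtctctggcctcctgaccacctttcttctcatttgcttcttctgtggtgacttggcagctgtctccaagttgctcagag
Itgb7: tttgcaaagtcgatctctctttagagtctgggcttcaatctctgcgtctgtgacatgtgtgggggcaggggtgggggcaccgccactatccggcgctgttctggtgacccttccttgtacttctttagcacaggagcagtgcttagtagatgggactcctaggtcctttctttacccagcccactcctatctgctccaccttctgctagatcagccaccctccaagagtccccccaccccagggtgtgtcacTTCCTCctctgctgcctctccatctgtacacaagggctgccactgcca
The Itgam promoter holds 3 such matches, the first of them 84 bases before the start. The Itgb7 promoter holds 1 and the Itgax promoter none. This 6-letter motif is common, being present in 28.3% of the 32851 promoters of the same length and in 9 of the 28 promoters matched to 25 members, so its letters do not set these genes apart. Promoters of Itgal and Itgb2 were not printed. The CArG box, a site read by serum response factor in many actin-linked genes, was found in the promoters of Vcl, Fermt2 and Itgb6 and in 1.63% of all promoters.

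Itgax, which encodes CD11c of dendritic cells and some macrophages, was at 4.92 and 11.2 TPM, or 2.28 times as high in the mutant pool. Among genes of 5 to 20 TPM, 4.75% were at least 2-fold higher. Itgam, which encodes CD11b of neutrophils, monocytes and macrophages, was at 21.2 and 40.1 TPM, a ratio of 1.89. Its exons share 3450 bases with the predicted gene Gm49368 on the same strand, for which no value was used here. The mutant pool was the higher one for both genes, and they lie side by side on chromosome 7, Itgam at 128062640 to 128118491 and Itgax at 128129547 to 128150657, with 11.1 kb between them. Itgad, the next gene along and the alpha chain CD11d, is not a member but belongs to the same cluster, and it was at 6.28 and 12.7 TPM, a ratio of 2.02. The fourth of these alpha chain genes on the chromosome, Itgal, lies 728 kb away from Itgam and did not share their direction. Itgal, the alpha chain of LFA-1 on lymphocytes, was at 6.84 and 5.75 TPM, a difference of −0.22.

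Itgb2, the beta chain CD18, was at 18.2 and 21.8 TPM, a difference of 0.25 that lay inside the interquartile range of its band. The beta chain was thus less different between the pools than Itgam and Itgax. Per length, its 3 alpha partners on the member list, Itgal, Itgam and Itgax, without Itgad, together had 1.81 times the TPM of Itgb2 in wild-type valves and 2.61 times in mutant valves. Itgb7, which pairs with alpha-4 on lymphocytes and is also found on mast cells, was low, at 1.92 and 3.60 TPM. Its difference of 0.66 is the median of the 5 leukocyte chains and comes from a gene in the least abundant band, where the central 95% of genes reached 1.93.

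Most leukocyte marker lists summed to more TPM in the mutant pool, while the lists of T and natural killer cells and of B cells summed to less. The part of these markers in the differences was not tested. All 6 pan-leukocyte genes had more TPM in the mutant pool, with a sum of 529.6 and 798 TPM. Ptprc, which encodes CD45, was at 73.2 and 183 TPM, a ratio of 2.49, while the other 5 genes (Cd52, Coro1a, Laptm5, Cd53 and Lcp1) summed to 456 and 615 TPM, a ratio of 1.35. Of 12 neutrophil markers 7 were measured at a mean of 1 TPM or more, 5 of them with more TPM, and the list summed to 19.2 and 105 TPM with Ly6g and Elane listed at 0 in both pools. S100a9 was at 2.34 and 48.0 TPM and S100a8 at 0.369 and 16.2 TPM, the 2 largest differences of the list. The 2 measured markers with less TPM were Camp, at 1.49 and 0.949 TPM, and Retnlg, at 1.21 and 1.13 TPM. Mpo was nearly equal, at 1.01 and 1.19 TPM. Monocyte and macrophage markers were higher for 11 of 12, with sums of 1937 and 2347 TPM, although Csf1r, the receptor that sustains macrophages, was at 83.3 and 83.8 TPM. Dendritic cell markers were higher for 5 of the 6 measured, with sums of 42.7 and 63.2 TPM, and mast cell markers for 7 of 7, with sums of 56.5 and 87.0 TPM. T and natural killer cell markers were mixed: 7 of the 10 measured had less TPM, as Itgal did, and 3 had more. Their sums were 94.7 and 72.0 TPM. Cd3e was at 19.2 and 6.35 TPM, whereas Cd3d was at 19.7 and 26.9 TPM and Klrd1 at 4.21 and 12.0 TPM. Of 6 B cell markers 3 were measured, with 1 higher and 2 lower and list sums of 99.3 and 78.7 TPM. In pooled tissue RNA, more cells of a type and more RNA per cell cannot be told apart.

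Set against these leukocyte genes, the direction of 3 chains depended on the gene chosen as denominator. Per TPM of Ptprc all 5 chains were lower in the mutant pool. Itgax stood at 0.0672 and 0.0615 TPM per TPM of Ptprc, a mutant to wild-type ratio of 0.915, and Itgam had a ratio of 0.757. Itgal had a ratio of 0.337 and Itgb2 one of 0.481. Per summed TPM of the 5 other pan-leukocyte genes, Itgax had a ratio of 1.69, Itgam 1.40 and Itgb7 1.39, while Itgb2 had 0.891 and Itgal 0.624. Itgb2 and Itgal were thus lower on both scales, and Itgax, Itgam and Itgb7 on that of Ptprc alone.

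**Figure D3:**
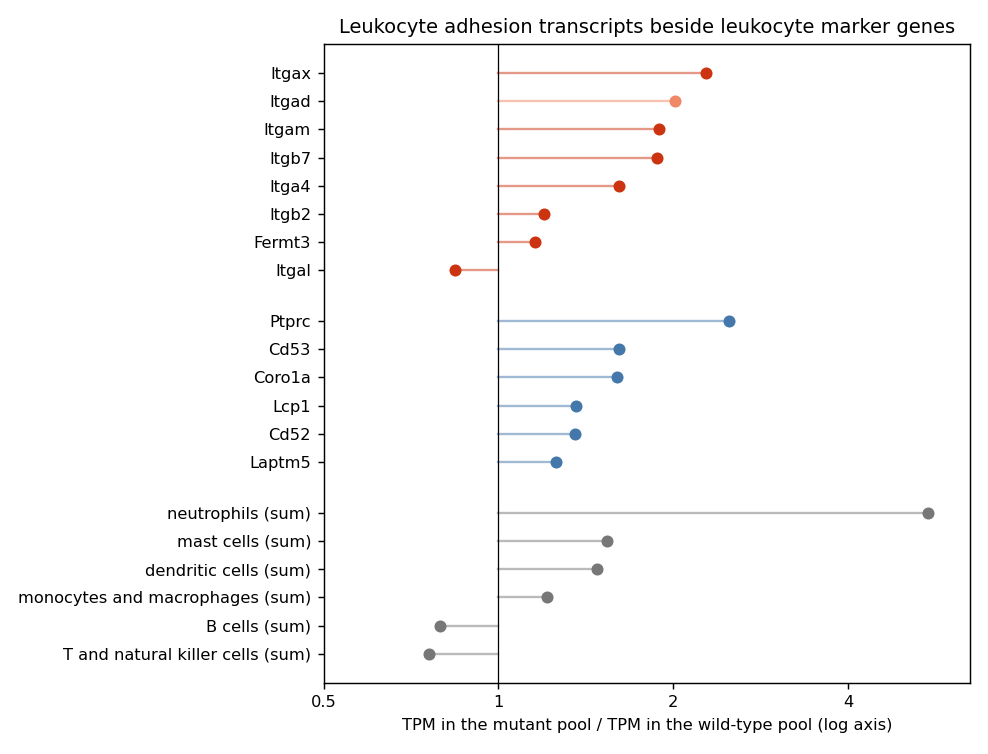
Ratio of mutant to wild-type TPM on a log axis for adhesion genes of leukocytes (red, with the non-member Itgad in orange), 6 pan-leukocyte genes (blue) and the summed TPM of marker lists (grey), 1 library per genotype. Ptprc (2.49) and the neutrophil sum (5.49) lie beyond every integrin, and Itgal (0.840) lies to the left of 1 with the T and natural killer cell sum (0.760) and the B cell sum (0.793).

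Among the alpha chains of other cells, those that bind collagen had the lowest median, at −0.26, beside 0.14 over all genes. In the mutant pool 3 of these 4 chains were lower under each scaling, while 48.4% to 64.9% of all genes were higher. Itga10, known from cartilage cells, was at 25.2 and 19.4 TPM, a difference of −0.36, and shares 1739 exonic bases with the predicted gene Gm42957 on its strand, at 3.97 and 3.24 TPM. Itga11, a receptor for fibrillar collagen on fibroblasts, was at 17.8 and 14.3 TPM. Itga2, best known from platelets and epithelium, was low at 2.99 and 2.42 TPM. These 3 genes all lay below the lower quartile of their bands. Itga1, a receptor for basement membrane collagen on vascular and mesenchymal cells, was the exception at 17.4 and 22.5 TPM. It neighbours Itga2 on chromosome 13, with 21.0 kb between the genes, and the neighbours differed in direction. Markers of valve interstitial and fibroblast-like cells were evenly split beside these chains, with 6 of 11 higher and sums of 18307 and 17573 TPM. Dcn, a proteoglycan of fibroblasts, was at 11409 and 9304 TPM and the mesenchymal filament gene Vim at 2797 and 3167 TPM, so the labelled valve tissue held abundant mesenchymal transcripts.

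The laminin receptors were led by Itga6, which pairs with beta-1 or beta-4 on endothelium, Schwann cells and epithelium. Itga6 was at 141 and 195 TPM, a difference of 0.47 above the upper quartile of its band. Itga7, the laminin receptor of muscle, was at 8.60 and 10.5 TPM, although 9 of 10 cardiac muscle markers had less TPM in the mutant pool (sums of 2779 and 2035 TPM, with Myh6 at 118 and 102 TPM). Itga3, a laminin receptor of epithelium and other cells, was at 12.9 and 10.2 TPM. The group thus held differences in both directions, and most endothelial markers did not share that of Itga6. Of these markers 7 of 9 were lower, and the sums were nearly equal at 875 and 856 TPM, a ratio of 0.978. The 2 higher ones were Pecam1, at 223 and 241 TPM, and Emcn, at 109 and 143 TPM. Epithelial and mesothelial markers were almost absent, with Epcam at 0.946 and 0.964 TPM and a list sum of 5.46 and 3.80 TPM.

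Of the receptors for the RGD sequence, 2 were higher and 1 lower in the mutant pool. Itga5, the main fibronectin receptor chain, was at 28.7 and 45.4 TPM, a ratio of 1.58 and a difference of 0.64. Itgav, which pairs with several beta chains and can release active TGF-beta from its latent complex, was at 68.5 and 92.0 TPM, a difference of 0.42. Both lay above the upper quartile of their bands. Itga8, a receptor for nephronectin found on mesenchymal and smooth muscle cells, was the member furthest below, at 64.6 and 48.9 TPM. Smooth muscle and pericyte markers were split beside it, with 5 of the 8 measured higher and sums of 423 and 507 TPM.

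Itga4 and Itga9 form a small subfamily that binds VCAM-1, tenascin-C and osteopontin. Itga4, which leukocytes also carry, was at 14.5 and 23.4 TPM, and its ratio of 1.62 was close to that of Itga5. Part of its exon sequence, 1124 bases, overlaps Cerkl on the other strand, which was at 17.1 and 16.6 TPM. Itga9 was at 167 and 189 TPM, a difference of 0.18 inside the interquartile range of its band. Of the leukocyte marker lists given above, most summed to more TPM in the mutant pool, as Itga4 had. Those of T and natural killer cells and of B cells summed to less.

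The beta chains outside leukocytes were all a little higher, with a median of 0.20, beside 0.14 over all genes, of which 64.9% were higher. Centring put 5 of the 6 above 0, beside 53.5% of all genes. Quantile normalization put 4 above 0, beside 48.4%, since Itgb4 and Itgb6 changed sign. Itgb1, the partner of 12 of the alpha chains listed here, was at 173 and 199.8 TPM. Itgb5, an alpha-v partner that binds vitronectin, was at 54.0 and 61.8 TPM. Both lay inside the interquartile range of their band. Itgb8, an alpha-v partner that activates latent TGF-beta, was at 12.7 and 19.1 TPM, a ratio of 1.51. Itgb3, found with alpha-v and, on platelets, with Itga2b, was at 8.16 and 11.7 TPM, whereas Itga2b was at 5.41 and 5.38 TPM. These 2 beta chains alone lay above the upper quartile of their bands. Of 8 platelet markers 4 were measured, with 1 of these higher and 3 lower, among them Ppbp at 11.6 and 5.61 TPM. The list sum of 175 and 229 TPM was mainly Pf4, at 153 and 213 TPM, which macrophages can also express. Itgb4, the hemidesmosome chain, was at 16.5 and 17.3 TPM, and the epithelial chain Itgb6 at 0.949 and 1.19 TPM.

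Because TPM is scaled for length, the chains can be compared as shares of the integrin mRNA in each pool. Such shares are unchanged by a scaling that multiplies all genes of a pool by the same factor. They were not computed after quantile normalization. The 15 alpha chains summed to 602 and 730.4 TPM. Itga9 took the largest share in wild-type valves, 27.7%, and 25.9% in mutant valves, while Itga6 went from 23.4% to 26.8% and so came first there. The share of Itga8 differed most, at 10.7% and 6.69%. Collagen-binding chains together held 10.5% and 8.02%, and the 3 leukocyte alpha chains 5.48% and 7.81%. Among the 8 beta chains, which summed to 285 and 336 TPM, Itgb1 held 60.6% and 59.4% and Itgb5 18.9% and 18.4%. The 12 alpha partners of Itgb1 had 3.29 and 3.37 times its TPM, so this ratio, unlike that of the leukocyte chains, was nearly equal in both pools. Itgav, Itga6 and Itga4 were counted in full in that sum, although they also pair with other beta chains.

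**Figure D4:**
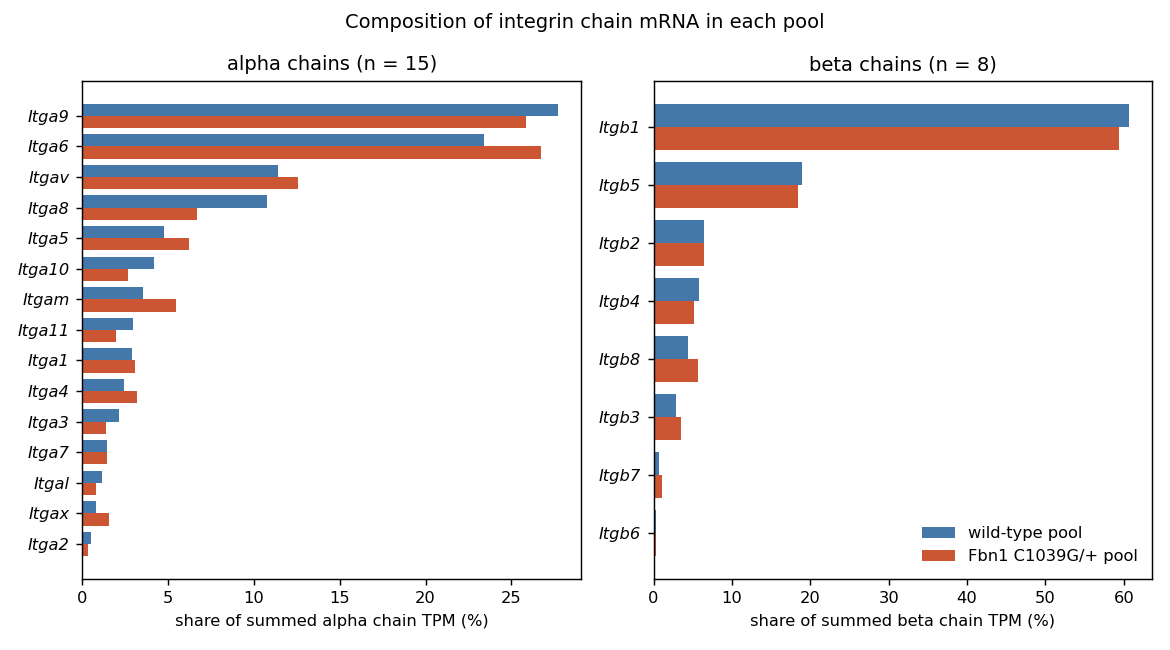
Share of each chain in the summed TPM of the 15 alpha chains (left) and the 8 beta chains (right), blue for wild type and red for Fbn1 C1039G/+, 1 library each, with bars starting at 0. Itga9 and Itga6 exchange the first place, Itga8 has 10.7% and 6.69%, and Itgb1 holds about the same share of beta chains in both pools.

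The focal adhesion proteins had a median of 0.23, beside 0.14 over all genes. In the mutant pool 9 of the 12 were higher, as were 64.9% of all genes. After quantile normalization these numbers were 8 of the 12 and 48.4%. Of the activators that bind the beta tail, Tln1, the talin of most cells, was at 77.0 and 92.3 TPM. Tln2, its paralog in muscle and brain, was at 30.6 and 40.9 TPM. Fermt2, the kindlin of mesenchymal and muscle cells, went the other way, at 102 and 81.3 TPM, a difference of −0.32 that was the lowest of the 12. Fermt3, the kindlin of blood cells, was at 6.57 and 7.58 TPM, a ratio of 1.15. Fermt3 was therefore closer to Itgb2 (1.20) than to Itgam (1.89) in its ratio between the pools.

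Ilk, the pseudokinase at the centre of its complex, was among the most abundant members at 179 and 173 TPM. Its exons share 2106 bases with Taf10 on the other strand, which was at 43.5 and 40.4 TPM. Parva, the parvin that ties Ilk to actin, was at 63.6 and 81.3 TPM, above the upper quartile of its band. Ptk2, the focal adhesion kinase FAK, was at 18.0 and 19.7 TPM, a difference of 0.13 that became −0.01 after quantile normalization. Pxn, the scaffold paxillin, was at 51.0 and 62.1 TPM. The kinase and its scaffold both lay inside the interquartile range of their bands.

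Of the actin linkers, Zyx and Actn1 were higher and Vcl and Actn4 differed little. Zyx encodes zyxin, which gathers at adhesions and stress fibres under tension. It was at 149 and 208 TPM, a difference of 0.48 that was the highest of the 12. Actn1, an alpha-actinin that crosslinks actin filaments, was at 161 and 204 TPM, a difference of 0.34. Its close paralog Actn4 was at 122 and 115 TPM, and reads shared by the paralogs can be divided between them only by an estimate. Vcl encodes vinculin, which strengthens the link of talin to actin, and was at 34.7 and 40.2 TPM. Its exons share 2090 bases with Ap3m1 on the other strand, at 34.4 and 35.5 TPM. Whether strand was used in the quantification is not given in the labels or file header.

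Other proteins of focal adhesions, 42 genes outside the member list, were divided almost evenly. Of the 40 measured, 22 were higher and 18 lower, with a median of 0.06 and none at least 2-fold different in either direction. The most abundant were Rsu1, a partner of the Ilk complex, at 339 and 320.4 TPM, and the actin crosslinker Flna at 246 and 339 TPM. The largest difference among genes of at least 5 TPM was that of the kinase Src, at 7.07 and 13.3 TPM. The median of this wider list thus lay below that of all genes, 0.14, while that of the 12 member proteins lay above it.

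Matrix ligands of integrins had a median of 0.22 over the 25 of 27 measured, beside 0.14 over all genes. Of these 25, 18 were higher and 7 lower, where 64.9% of all genes were higher. Postn, periostin, was the most abundant at 1269 and 2263 TPM, and Col3a1 followed at 760.2 and 995 TPM. Tnc, tenascin-C, a ligand of alpha-9 chains, was the 1 ligand at least 2-fold higher, which 4.81% of all genes were. Tnc was at 5.54 and 13.1 TPM. Fbn1 was at 108 and 126 TPM, which does not check the genotype, since the allele changes an amino acid. Ligands on cell surfaces and in plasma were split, with 4 of the 8 measured higher. Vcam1, a cell-surface ligand of alpha-4, was at 260 and 362 TPM. C3, whose fragment is bound by Itgam and Itgax with Itgb2, was at 244 and 190.5 TPM. Madcam1, the gut ligand of alpha-4 beta-7, and the fibrinogen genes Fga, Fgb and Fgg were listed at 0 in both pools.

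Other differences between the libraries accompany all of these values, and their part was not tested. The 4 Y-linked genes Ddx3y, Eif2s3y, Kdm5d and Uty were 1.29 to 1.54 times as high in the mutant pool. The red blood cell list, 4 globin genes and Alas2, summed to 6801 and 687 TPM. Lymphatic endothelial markers summed to 373 and 213 TPM with 6 of 7 lower, and melanocyte markers to 143 and 84.9 TPM with 5 of 6 lower. The columns sum to 999964 and 999945 TPM, TPM keeps no depth, and the depth of both libraries is unknown, so no detection limit can be given.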

How the data were processed

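Total RNA of pooled mitral valves went through Ovation RNAseq v2 amplification and Nextera XT library preparation for an Illumina HiSeq, per the labels' protocols. The submitters' processing notes name Trimmomatic, HISAT2, kallisto and the mm10 genome. Their versions, their roles and the annotation were not given in the sources used here. Values deposited by the authors are gene-level TPM, 1 column per genotype, per the file headers. TPM is relative to the library total, so a transcript that takes less of it raises all others.

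From these values the difference in log2(TPM + 1) was computed with Python 3.11.15 and pandas 2.3.3, with a pseudocount of 1. A gene was measured at a mean of at least 1 TPM and called at a difference of at least 1 in size. The code that makes the calls was tested on simulated data, and the calls of the measured genes were not tested. No test between genotypes was possible with 1 library each. Gene positions and exon overlaps come from GENCODE M21, and promoters from RefSeq (GRCm38.p6), which matched 25 of 35 members.

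The members, gene lists and named genes were chosen with earlier results of these data known. All members were named, along with the 2 most abundant genes of each other adhesion list, its 2 largest differences at a mean of at least 5 TPM, and defining cell type markers. An item that this rule takes is not reported here. Fbn1, the genes listed at 0, the overlapping genes and the abundance bands were added after the values were seen. Camp, Retnlg, Mpo, Cd3d, Klrd1, Emcn and Ppbp are not among the defining markers and were named outside the rule. Alternatives were other pseudocounts, filters, scalings, totals and denominators.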

Additional observations from a re-analysis of the deposited data

How the results depend on the processing

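The choices varied were the pseudocount, the filter, the scaling and the genes in the total. The number of members at least 2-fold higher was 1 and became 0 with a pseudocount of 5, with centring or with quantile normalization, because Itgax moved below the limit. It stayed at 1 under the other alternatives, and the number at least 2-fold lower was 0 under each. The main medians were 0.20 for integrin chains outside leukocytes, 0.66 for leukocyte chains and 0.23 for focal adhesion proteins, beside 0.14 over all genes. Of the 18 integrin chains outside leukocytes 13 were higher, as were 64.9% of all genes. With a pseudocount of 0.1 the median was 0.25 for integrin chains outside leukocytes, 0.87 for leukocyte chains and 0.24 for focal adhesion proteins. With a pseudocount of 5 these medians were 0.18, 0.31 and 0.22. Keeping only genes of at least 5 TPM gave 0.23 for integrin chains outside leukocytes and 0.57 for leukocyte chains. Quantile normalization gave 0.088, 0.41 and 0.10, beside a median of −0.01 over all genes. Centring gave 0.089, 0.54 and 0.12, beside 0.03 over all genes. Leaving out mitochondrial, globin, ribosomal protein and predicted genes gave 0.16, 0.67 and 0.18, beside 0.08. Each median stayed above that of all genes under the same setting. The gain of Itga6 in its share of alpha chain TPM was 3.31 percentage points, and 3.10 with Itga2b, Itgad and Itgae in the total. The median log2 ratio of leukocyte chains to Ptprc was −0.41, mutant against wild type, and turned to 0.48 when 5 other pan-leukocyte genes were the denominator, since Ptprc differed more between the pools than they did. No paired analysis was possible because each genotype has 1 library, and for the same reason no library could be left out. Amplified RNA without molecular identifiers and unknown depth limit the low genes Itgb6, Itgb7 and Itga2 most.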

Other observations

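Matrix ligands can be read beside integrin chains that bind them, as values of these 2 libraries chosen after they were seen. Npnt, nephronectin, the ligand of alpha-8 beta-1, was at 30.7 and 19.7 TPM (wild type first), and its receptor chain Itga8 was at 64.6 and 48.9 TPM. Of the laminin chains, Lama4 of vessel walls was at 76.2 and 106 TPM and Lamc1 at 95.5 and 130.1 TPM. Lama5 was at 15.3 and 9.19 TPM, and Lama3, a chain of epithelial laminin, was at 2.10 and 0.725 TPM. The laminin receptor Itga6 was at 141 and 195 TPM beside them, and Itga3 at 12.9 and 10.2 TPM. Fn1, fibronectin, was at 196 and 268 TPM beside its receptor chain Itga5 with 28.7 and 45.4 TPM. Spp1, osteopontin, was at 26.1 and 44.4 TPM beside Itga4 at 14.5 and 23.4 TPM. Itga9, of the same subfamily, was at 167 and 189 TPM. These pairs were picked from 27 matrix ligands by their values, and other ligands differed in direction from their receptors. Lama5 and Lama3 were lower while Itga6 was higher. Fbln5 (71.3 and 54.5 TPM) and Mfge8 (107 and 98.5 TPM) were lower while Itgav was higher. Col1a1 (243 and 292 TPM) and Col3a1 were higher while the collagen receptors Itga10 and Itga11 were lower.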
